A study of Mus musculus with 12 samples.

Results

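B140H, a mouse leukaemia cell line with high resistance to cytarabine (Ara-C), was compared with B140P, the sensitive parental line from which it was derived. Both lines come from BXH-2 mice, inbred animals whose replicating murine leukaemia virus causes myeloid leukaemia by inserting near growth-controlling genes. The comparison was formed from the sample titles and holds 6 of the 12 arrays of the series, 3 of B140H and 3 of B140P, lettered A, B and C. The other 6 arrays hold a second pair, resistant B117H and its parental line B117P, with 3 arrays each. Total RNA of each sample was labelled with biotin and hybridised to 1 array. Each condition is thus a single cell line, and the labels state neither the Ara-C concentration that B140H tolerates nor whether letters stand for separate cultures. All samples, the sensitive ones included, carry the same text on exposure to rising Ara-C and on passage without it. The p-values below measure the spread between arrays of a line, which may be technical.

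Ara-C is a cytidine analogue used against acute myeloid leukaemia. It enters through equilibrative nucleoside transporters, and deoxycytidine kinase, the product of Dck, adds its first phosphate. Further kinases make the triphosphate, which DNA polymerases build into the growing strand, while deaminases and the triphosphate hydrolase Samhd1 inactivate the drug or its active form. Cells that survive long selection may also differ in death, repair, cell cycle and surface genes, and the arrays give a readout of all of these at once.

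The defining genes of the labelled cell type were checked first. Spi1, a transcription factor of myeloid cells, measured 2610 to 2778 RMA intensity units in B140H and 2382 to 2643 in B140P. Cebpa, a factor of the granulocyte lineage, lay at 1176 to 1492 in B140H and 993 to 1073 in B140P, and Ptprc, the common leukocyte antigen, at 8280 to 10036 and 9859 to 10806. Itgam, an integrin chain of mature myeloid cells, was low in both lines, at 51.9 to 83.1 in B140H and 58.4 to 115 in B140P. Csf3r, the receptor of granulocyte colony-stimulating factor, was near the middle of all intensities, at 124 to 169.9 in B140H and 143 to 151 in B140P. Of the markers of other cells, Hba-a1 (erythroid), Pf4 (megakaryocyte), Col1a1 (stroma) and Cdh5 (endothelium) lay between 55.8 and 103 on all 6 arrays, below the array medians. The T cell gene Cd3e, at 168 to 241, was above those medians.

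Of 18193 genes, 1194 were called at an adjusted p under 0.05, which is 6.56% of all genes. B140H was higher for 512 of them (2.81%) and lower for 682 (3.75%), and the median change over all genes was 0.05 on the log2 scale. Most changes were small. The called genes had a median absolute log2 change of 0.62, while 72 rose (0.396%) and 127 fell (0.698%) by at least 2-fold. Changes past a log2 of 3 were found for 2 genes that rose and 7 that fell. The 3 arrays of B140H lay wholly above or below those of B140P for 1190 of the called genes, and for 4317 of all genes (23.7%). With the array letter as a block, 1827 genes were called (10%). The counts in gene lists below stand beside these shares of all genes. For list counts at an unadjusted p under 0.05 the share of all genes was not computed, and no conclusion is drawn from them. Leaving out B140P A, B or C lowered the count to 752, 746 or 763. Array B of B140H stood apart from the rest of the pair, with a median of 131.5 intensity units against 117.9 to 121.4 on the other 5 arrays. It correlated with the arrays of its own line at 0.988 across probe sets, and A and C of B140H at 0.992. Without it 917 genes were called, and 91 of the 92 called genes named below kept their call, the exception being Ctss.

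**Figure D1:**
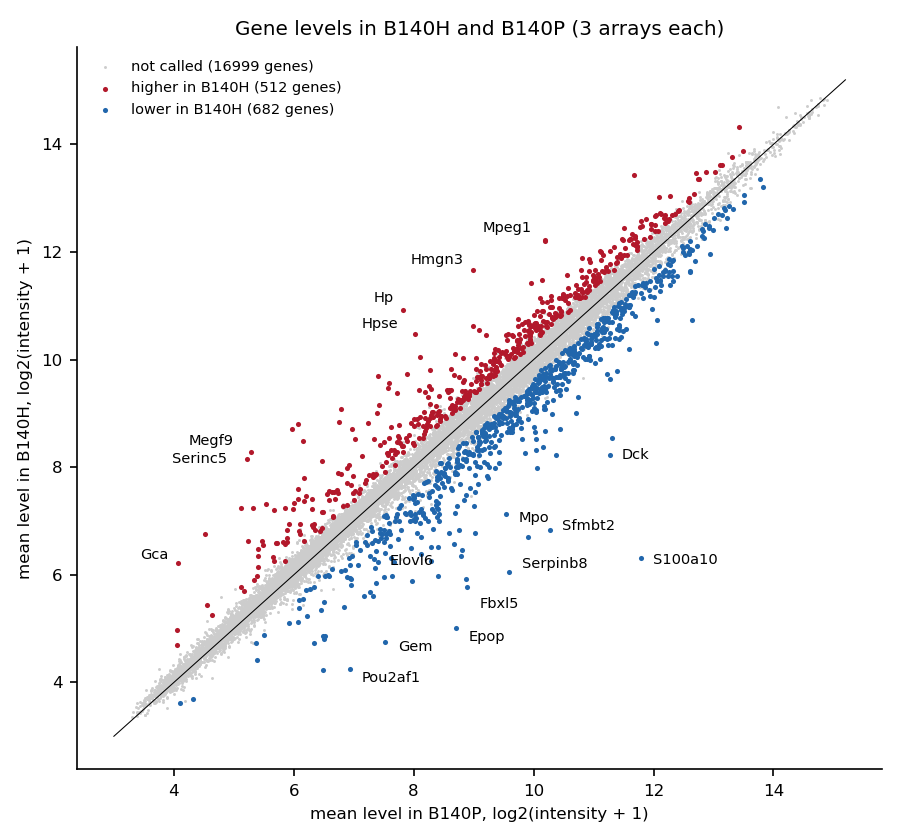
Mean level of each gene in B140H (vertical axis) against B140P (horizontal axis), both in log2(intensity + 1), with 3 arrays per line. The black line marks equal levels, red points are the 512 genes called higher and blue points the 682 called lower in B140H, and S100a10 lies farthest below the line.

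Dck was one of the genes with the largest falls. Its brightest probe set measured 305, 281 and 309 intensity units in B140H, against 2337, 2481 and 2576 in B140P. The arrays of a line lay close together and the lines were far apart, with an 8.24-fold lower level in B140H (log2 change -3.04, 95% interval -3.30 to -2.78, adjusted p = 1.92e-08). The next brightest probe set of Dck gave 146, 137 and 141 units in B140H and 863, 1141 and 1199 in B140P, a log2 change of -2.90 (adjusted p = 4.14e-07). The dimmest one gave 61.9, 101 and 74.0 units in B140H and 217, 203 and 199 in B140P, a change of -1.41 (adjusted p = 0.000365). All 3 probe sets were thus lower on every B140H array than on any B140P array, and signal remained in B140H. The arrays cannot tell a lower transcript level from a change in the sequence that the probes bind.

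The promoter windows of Dck, which fell, and of Serinc5 and Megf9, which rose and are described further on, are shown because these genes had large changes in opposite directions, of 8.24-fold, 7.64-fold and 8.06-fold. Each is the 250 bases before the gene's start in RefSeq (mouse assembly GRCm38.p6), written 5′ to 3′ on the gene's own strand, and capitals mark the GC box GGGCGG on either strand. The Dck window lies at chr5:88764763-88765012 on the plus strand, that of Serinc5 at chr13:92610888-92611137 on the plus strand and that of Megf9 at chr4:70534929-70535178 on the minus strand.
Dck: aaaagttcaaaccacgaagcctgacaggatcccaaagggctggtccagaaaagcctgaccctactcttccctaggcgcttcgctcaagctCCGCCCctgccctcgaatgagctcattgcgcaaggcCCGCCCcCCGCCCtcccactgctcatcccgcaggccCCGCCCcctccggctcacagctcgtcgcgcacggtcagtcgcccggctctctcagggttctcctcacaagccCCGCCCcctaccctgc
Serinc5: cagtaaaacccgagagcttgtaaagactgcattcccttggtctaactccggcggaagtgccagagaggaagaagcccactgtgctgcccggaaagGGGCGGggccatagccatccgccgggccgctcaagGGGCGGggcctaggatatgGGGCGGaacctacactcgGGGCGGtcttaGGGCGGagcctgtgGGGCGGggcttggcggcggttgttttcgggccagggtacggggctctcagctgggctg
Megf9: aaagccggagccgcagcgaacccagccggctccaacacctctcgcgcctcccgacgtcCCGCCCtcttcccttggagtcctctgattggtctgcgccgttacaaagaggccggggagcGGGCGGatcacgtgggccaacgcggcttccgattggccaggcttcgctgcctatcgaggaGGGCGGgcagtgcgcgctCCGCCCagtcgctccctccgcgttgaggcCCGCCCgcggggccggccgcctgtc
The motif matched 5, 6 and 5 times in these windows. Of all 32851 promoter windows of this length in the table, 32.7% held it at least once, and so did 48.4% of the windows of measured genes, 57.7% of those of genes called higher and 53.5% of those of genes called lower in B140H.

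Other genes that handle Ara-C were looked at next. Of 13 measured genes of uptake and activation, 1 rose (Dguok) and 1 fell (Dck), with a median change of -0.04 (15.4% called). Dguok, a mitochondrial kinase of deoxyguanosine, measured 759, 709 and 769 in B140H and 618, 508 and 540.0 in B140P, a change of 0.43 (adjusted p = 0.0197). Its call ended without B140H A (adjusted p = 0.064), B140H C (0.0582), B140P B (0.107) or B140P C (0.0848). Slc29a1, the main transporter of Ara-C into cells, measured 1896, 1728 and 1393 in B140H and 1462, 1331 and 1056 in B140P, so the lines overlapped (change 0.38, interval -0.04 to 0.81, adjusted p = 0.41). Between arrays of the same letter B140H was the higher each time, and with the letter as a block the adjusted p was 0.117. For Cmpk1, the kinase of the second phosphate, the change was 0.15 (interval -0.06 to 0.35, adjusted p = 0.551). Tk1, the thymidine kinase of dividing cells, changed by 0.14 (adjusted p = 0.663). Among 12 measured genes that inactivate the drug limma called 0, and 2 had an unadjusted p under 0.05. Cda, the cytidine deaminase, stayed dim on all arrays, at 92.4, 107 and 68.2 in B140H and 84.0, 77.6 and 70.9 in B140P. Samhd1 changed by 0.21 (adjusted p = 0.238), though its mean over 5 probe sets had the opposite sign (-0.05). The deoxycytidylate deaminase Dctd changed by -0.25 (adjusted p = 0.287).

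The supply of normal deoxynucleotides was also looked at, since these compete with Ara-C. Of 16 measured genes 1 rose (6.25% called, against 6.56% of all genes), Nudt1, which clears oxidised nucleotides from the pool. Nudt1 measured 2239, 2285 and 2304 in B140H, against 1421, 1431 and 1428 in B140P (change 0.67, adjusted p = 0.00036). The ribonucleotide reductase subunit genes Rrm1 and Rrm2 changed by 0.30 (adjusted p = 0.0892) and 0.19 (adjusted p = 0.388), and Rrm1 was called with the array letter as a block (adjusted p = 0.0408). Among 12 drug efflux transporters 1 was called (8.33%). This was Abcc4, an exporter of nucleotides and nucleotide analogues, which fell to 1009, 1047 and 1039.5 in B140H, against 1864, 2008 and 1691 in B140P (change -0.84, adjusted p = 0.000298). Nudt1 lies on chromosome 5 and Abcc4 on chromosome 14, which hold stretches of raised and of lowered genes, described below. The part of these stretches was not tested. Abcb1a, the classical multidrug pump, was dim in both lines, at 33.6, 47.7 and 34.9 and 29.9, 35.6 and 29.8 (change 0.27, adjusted p = 0.489).

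The largest change of the comparison was the fall of S100a10. Its protein pairs with annexin A2 at the plasma membrane and binds plasminogen. S100a10 measured 64.1, 76.4 and 99.0 intensity units in B140H, against 4142, 3262 and 3249 in B140P, so every B140H array was far below every B140P array. This was a 44.3-fold difference (log2 change -5.47, interval -5.79 to -5.15, adjusted p = 7.29e-10). A further probe set of S100a10 changed by -6.53 (adjusted p = 4.79e-10) and the dimmest by -1.14 (adjusted p = 0.0515). The partner gene Anxa2 was not called. It gave 7865, 6307 and 4843 in B140H and 9733, 5136 and 5335 in B140P, and the lines overlapped (change -0.05, interval -0.55 to 0.45, adjusted p = 0.954).

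Of 26 measured S100 and annexin genes 6 fell and 0 rose (23.1% called), with a median change of -0.04. S100a1, a calcium sensor of muscle, measured 402, 393 and 464 in B140H and 1298, 1414 and 1451 in B140P (change -1.73, adjusted p = 4.61e-06). Anxa5, which binds exposed phosphatidylserine, measured 863, 920.1 and 630.1 in B140H and 3498, 1971 and 2204 in B140P (change -1.64, adjusted p = 0.000239), and Anxa9 changed by -0.91. Of the 6 genes that fell, 5 lie on chromosome 3. A stretch of genes lower in B140H on that chromosome, described below, runs from Selenbp1 to Casp6. Whether any of the 5 lies in it was not determined. The part of the stretch in the list's count was not tested.

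Genes of chromatin repression were among the next largest falls. Epop, a partner of Polycomb repressive complex 2 that also binds elongin, measured 25.1, 36.2 and 33.4 in B140H, against 465, 408 and 379 in B140P. It passed from above the median of all probe sets in B140P to below their lower quartile in B140H (12.9-fold, log2 change -3.69, adjusted p = 6.96e-09). Sfmbt2, a Polycomb protein with MBT repeats, measured 133, 109 and 101 in B140H and 1338, 1278 and 1097 in B140P (change -3.43, adjusted p = 5.81e-08). Its dimmer second probe set was not called, and the mean of both changed by 0.55 of that value. In all, 1 of 38 measured Polycomb genes rose and 2 fell (7.89% called, against 6.56% of all genes), and the median change was 0.01. With the array letter as a block 8 were called, beside 10% of all genes. The catalytic subunit gene Ezh2 was not called, at 4236, 4497 and 4590.2 in B140H and 4710.2, 4626 and 4584 in B140P (change -0.06, interval -0.24 to 0.12, adjusted p = 0.805).

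Of 44 genes of DNA methylation and histone enzymes 2 fell and 0 rose (4.55% called, against 6.56% of all genes). With the array letter as a block 7 of them were called, beside 10% of all genes. Dnmt3b, a de novo DNA methyltransferase, fell to 766, 802 and 767 in B140H, against 1466, 1542 and 1552 in B140P (change -0.96, adjusted p = 3.63e-05). Setdb1, a histone methyltransferase that silences endogenous retroviruses, changed by -0.82 (adjusted p = 0.000191), which without probe sets shared between transcripts kept its size (-0.82) but lost its call (adjusted p = 0.0961). Among the rises was Hmgn3, a nucleosome-binding protein of open chromatin. It measured 3454, 3094 and 3228 in B140H, against 344, 573 and 674 in B140P (change 2.67, adjusted p = 1.51e-05), and its second probe set changed by 2.85.

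Protease inhibitors moved both ways. Serpinb8, an intracellular inhibitor of furin-like proteases, fell to 67.8, 71.4 and 58.2 in B140H, against 837, 724 and 756 in B140P (11.6-fold, change -3.54, adjusted p = 6.94e-09). Serpinb6b changed by -1.71 (adjusted p = 0.000609) and Serpini1, an inhibitor of tissue plasminogen activator, by 1.34 (adjusted p = 0.00013). These were the 3 called genes of 16 measured serpins (18.8%). Spint2, a membrane-bound inhibitor of another protease inhibitor family, measured 282, 383 and 245 in B140H and 1298, 1316 and 1352 in B140P (change -2.15, adjusted p = 2.76e-06). Its second probe set changed by -5.19.

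**Figure D2:**
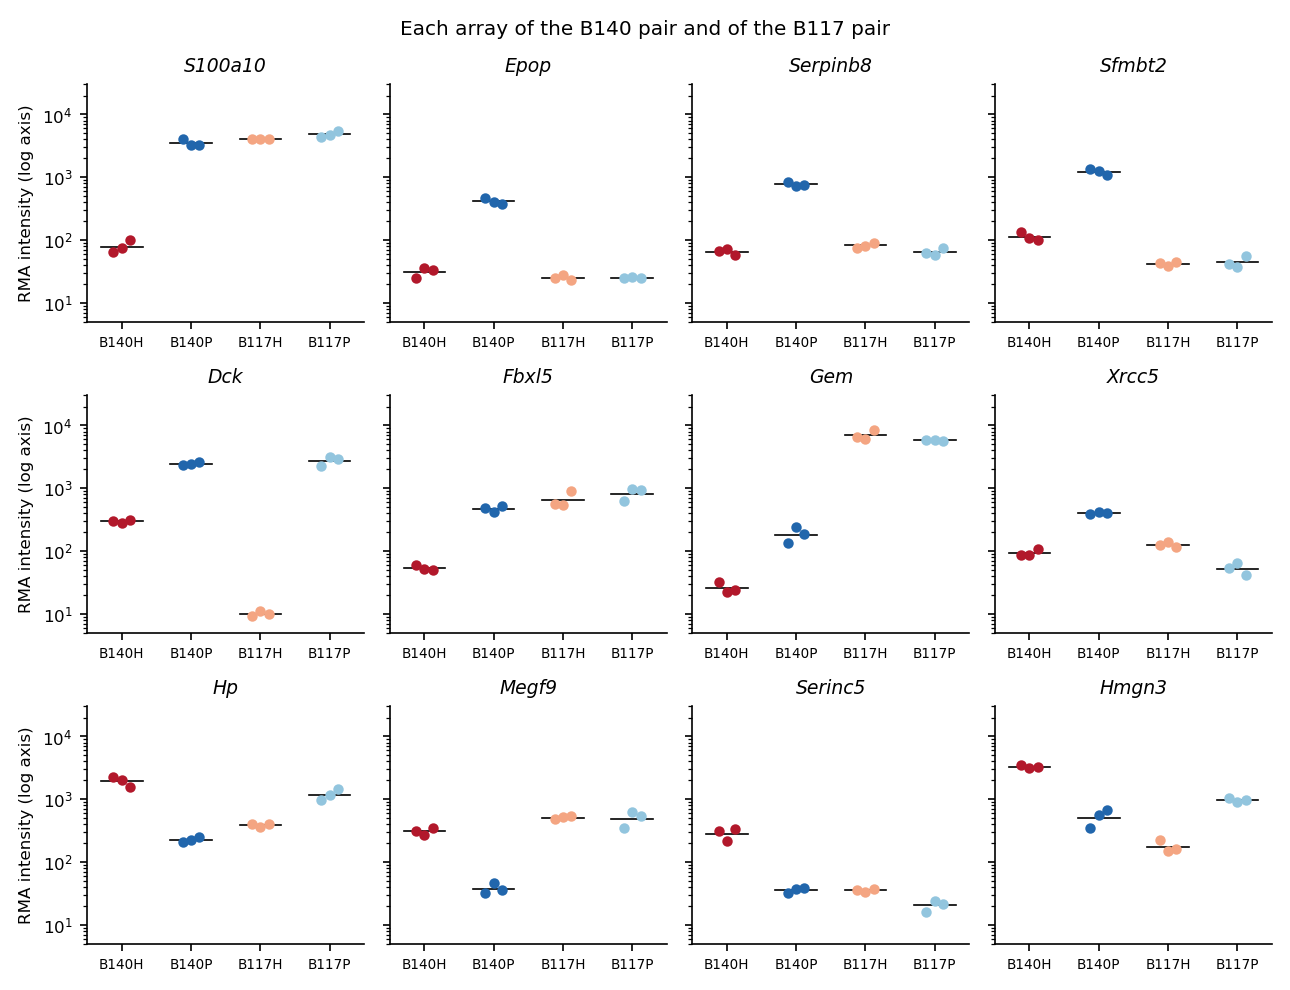
RMA intensity on a log axis on each array for 12 genes with large changes, with B140H and B140P to the left and B117H and B117P to the right of each panel. Points are arrays A, B and C from left to right, and bars are line means on the log2 scale. S100a10 lies between 64.1 and 99.0 on the B140H arrays only, whereas Dck is low in both resistant lines.

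Other falls of at least 8-fold were those of Sash1 and Fbxl5. Sash1, a signalling scaffold, measured 148, 90.0 and 82.2 in B140H and 1319.6, 728 and 912 in B140P (change -3.20, adjusted p = 7.98e-06), and the mean of its probe sets changed by 0.48 of that. Fbxl5 encodes the iron-sensing part of a ubiquitin ligase that removes iron regulatory protein 2. It measured 60.2, 51.9 and 49.4 in B140H, against 486, 423 and 519 in B140P (change -3.12, adjusted p = 2.06e-06). Gnpda2, which turns glucosamine phosphate into fructose phosphate, measured 76.8, 51.2 and 53.5 in B140H and 520.4, 438 and 450.0 in B140P (change -2.95, adjusted p = 8.96e-08). Insm1, a zinc finger factor of neuroendocrine cells, changed by -2.23, Cd276, an immunoglobulin-family ligand of T cell control, by -1.92, and Magi3, a membrane scaffold, by -2.35. Over these 3 genes the highest adjusted p was 0.000109. The other probe sets of Magi3 were not called, and the mean of its probe sets changed by 0.34 of that value.

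Besides Epop, genes that passed from above the overall median to below the lower quartile included Gem and Marchf8. Gem, a small GTPase of the family that holds down calcium channels, measured 32.2, 22.3 and 23.9 in B140H and 137, 239 and 188 in B140P (change -2.78, adjusted p = 3.73e-06). Its relative Rrad went the other way, with 258, 226 and 217 in B140H against 106, 103 and 121 in B140P (change 1.08, adjusted p = 3.27e-05). Marchf8, a membrane-bound ubiquitin ligase that removes surface proteins, measured 45.0, 39.3 and 61.5 in B140H and 171, 166 and 142 in B140P (change -1.71, adjusted p = 6.59e-05). Genes that passed in the opposite direction included Megf9, Serinc5, Lrrc39, Nt5el, Lratd2 and Gcsam. Lratd2 gave 157, 159 and 156 in B140H, against 38.5, 45.7 and 53.6 in B140P (change 1.77), Nt5el changed by 1.91, Lrrc39 by 2.13 and Gcsam by 1.53, and the highest adjusted p among them was 0.000219. The mean over the probe sets of Lrrc39 was 0.57 of its value.

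The largest rise was that of Hp, which encodes haptoglobin, the binder of free haemoglobin and a protein of neutrophil granules. Hp measured 2256, 2063 and 1549.5 in B140H, against 208, 223 and 247 in B140P (8.53-fold, change 3.09, interval 2.75 to 3.44, adjusted p = 3.01e-07). Megf9, a membrane protein with EGF-like repeats, measured 318, 275 and 349 in B140H and 31.7, 46.6 and 36.7 in B140P (change 3.01, adjusted p = 2.06e-06). Its dimmer second probe set changed by 0.35 and was not called (adjusted p = 0.218). Serinc5, a membrane protein that lowers the infectivity of HIV and of murine leukaemia virus particles, measured 311, 220.5 and 331 in B140H, against 32.8, 36.9 and 39.1 in B140P (change 2.93, adjusted p = 6.22e-07). It was the single gene that rose among 20 measured genes of the Serinc family and of retrovirus restriction, of which 2 fell.

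Hpse, which encodes heparanase, the enzyme that cuts heparan sulfate, measured 1749, 1131 and 1429 in B140H, against 249, 250.2 and 283 in B140P (change 2.44, adjusted p = 3.21e-06). Phka1, a regulatory subunit of phosphorylase kinase, measured 381, 331 and 363 in B140H and 59.4, 63.6 and 91.6 in B140P (change 2.33, adjusted p = 1.34e-06), and both further probe sets of the gene were called higher too. Myl4, a myosin light chain of embryonic muscle and heart, reached 11255, 11528 and 10349 in B140H, against 2394, 3548 and 4046 in B140P (change 1.76, adjusted p = 0.000106). The zinc finger gene Zscan26 changed by 2.74 (adjusted p = 0.000179), Ttc39c by 2.08 (adjusted p = 8.96e-08) and Clec2i, a lectin ligand of natural killer receptors, by 1.83 (adjusted p = 0.000582). The mean over all probe sets was 0.45 of the Ttc39c value.

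Markers of blood cell types did not move as one. Of 11 measured genes of primary neutrophil granules 3 fell and 0 rose, with a median change of -0.08, while of 18 genes of late neutrophil granules 2 rose and 0 fell, with a median of 0.11. The summed intensity of the primary granule genes was 41373 to 44814 in B140H and 50005 to 51778 in B140P, and that of the late granule genes 3369.5 to 4974 in B140H and 1620.2 to 1720.0 in B140P. Hp and Mmp8, described below, made up most of the late granule sum in B140H, so it does not show a rise of the other members. Of the 18 late granule genes 7 had a mean level above the overall median. Mpo, the peroxidase of primary granules, measured 260.4, 121 and 86.1 in B140H, against 648, 844 and 751 in B140P. The B140H arrays were spread widely, yet the highest of them lay below the lowest B140P array (change -2.41, interval -3.02 to -1.79, adjusted p = 0.000284). Cst7, a cystatin of leukocyte granules, changed by -0.88 (adjusted p = 7.1e-05). The late granule genes that rose were Hp and Mmp8, the neutrophil collagenase, which measured 1597, 1083 and 672 in B140H and 309, 299 and 224 in B140P (change 1.93, adjusted p = 0.000916). Gca, a calcium-binding protein of neutrophil granules, measured 63.0, 81.0 and 77.0 in B140H and 14.9, 16.6 and 15.8 in B140P (change 2.15, adjusted p = 6.02e-07). In bulk RNA, fewer cells of a type and less RNA per cell cannot be told apart.

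Of 33 measured genes of monocytes and macrophages 5 rose and 3 fell (24.2% called), with a median change of 0.13. Their summed intensity was 42729 to 48401 in B140H and 30911 to 34944 in B140P. F13a1, Mpeg1 and Irf8, described next, made up most of the gap between these sums, so it does not show a rise of the other members. Mpeg1, a pore-forming protein of macrophages, measured 4632, 5166 and 4436 in B140H, against 958, 1068 and 1566 in B140P (change 2.02, adjusted p = 1.86e-05). F13a1, the A chain of clotting factor XIII, measured 7806, 4230.0 and 3274 in B140H and 1249, 987 and 1285 in B140P (change 2.03, adjusted p = 0.0032). Irf8, a transcription factor that drives monocyte and dendritic cell fate, measured 9399, 7407 and 8476 in B140H and 5155, 4201 and 5599 in B140P (change 0.76, adjusted p = 0.00201), and the lysosomal glycoprotein gene Cd68 changed by 0.90 (adjusted p = 0.00197). The other probe set of Irf8 changed by 0.80 and was not called (adjusted p = 0.111). The genes of the list that fell were Ctsl and Ctss, which encode lysosomal cathepsins, and Cd163, the scavenger receptor for haptoglobin-bound haemoglobin. Ctsl measured 85.9, 110.2 and 116 in B140H and 332, 254 and 253 in B140P (change -1.42, adjusted p = 8.42e-05), while its dimmer probe set, the one not shared between transcripts, changed by 0.00103 (adjusted p = 0.999). Ctss changed by -0.60 (adjusted p = 0.0192), a call that ended without B140H B (adjusted p = 0.0705) or B140P A (0.092), and Cd163 was dim in both lines, at 41.1, 45.2 and 37.2 in B140H and 56.7, 75.2 and 71.1 in B140P (change -0.70, adjusted p = 0.00694). Among the 20 measured dendritic cell and MHC class II genes limma called 0, 1 was called with the array letter as a block, and 4 had an unadjusted p under 0.05.

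The B lymphoid list had 3 genes that rose and 4 that fell among 24 measured (29.2% called), with a median of 0.10. Cd22, an inhibitory receptor of B cells, measured 1406, 1652 and 1722 in B140H, against 413, 434 and 734 in B140P (change 1.64, adjusted p = 0.000312), and the B cell adaptor gene Bank1 changed by 1.23 (adjusted p = 0.000451). Pou2af1, a B cell coactivator of octamer factors, measured 19.6, 15.3 and 19.3 in B140H and 95.5, 169 and 109 in B140P (change -2.69, adjusted p = 4.73e-06). Dntt, the terminal transferase that adds bases at rearranging antigen receptor genes, measured 1885, 1423 and 1811 in B140H and 5782, 6897 and 6445 in B140P (change -1.91, adjusted p = 0.00461). The genes of this list thus moved in both directions, their summed intensity overlapped, at 47312 to 56686 in B140H and 36759 to 53898 in B140P, with B140H higher at each array letter, and the T and NK list had 1 rise and 1 fall among 26.

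Of 19 measured erythroid genes 2 rose, Rhd, a blood group antigen gene, by 0.77 (adjusted p = 0.000203) and Fech, the last enzyme of haem synthesis, by 0.73 (adjusted p = 0.000849). Among 19 stem and progenitor genes 2 fell, among them Egfl7, which changed by -0.86 (adjusted p = 0.000117). Of 25 Hox and Meis genes limma called 0, and 1 had an unadjusted p under 0.05. Of 24 known insertion targets of the BXH-2 virus 1 rose and 3 fell. One that fell was Csf2, the cytokine gene of granulocyte and macrophage growth, at 89.2, 119.7 and 96.4 in B140H and 252, 182 and 211 in B140P (change -1.07, adjusted p = 0.000609).

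Surface and signalling genes were next. Of 25 integrin and selectin ligand genes 3 rose and 1 fell. Itga4, a chain of the receptor for vascular cell adhesion molecules, measured 4080.3, 4289 and 4772 in B140H and 2525, 2499.6 and 2783 in B140P (change 0.75, adjusted p = 0.000449), while the adhesion ligand gene Icam1 changed by -0.72 (adjusted p = 0.00449). Further probe sets of Itga4 changed by 0.37 to 0.67, and not all were called (highest adjusted p = 0.646). Of 34 inflammatory cytokines and chemokines 1 rose and 6 fell, with a median change of 0.02. Il15, a growth factor of natural killer cells, measured 70.5, 77.9 and 60.6 in B140H and 178, 173 and 137 in B140P (change -1.21, adjusted p = 0.00147), and Ltb, a membrane partner of lymphotoxin, changed by -1.16 (adjusted p = 0.00203). The interferon response list, with 40 genes measured, had 4 rises and 1 fall. The one that fell was Ifitm1, an antiviral membrane protein gene, at 1122, 689.7 and 808 in B140H and 2537, 1889.7 and 2828 in B140P (change -1.48, adjusted p = 0.00139), and Trim30a changed by 0.88.

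Small GTPases and their regulators had 4 genes that rose and 10 that fell among 46 measured (30.4% called), with a median of -0.07. Of the 10 that fell, 3 lie on chromosome 3, 3 on chromosome 14, 1 on chromosome 9 and 1 on chromosome 12. These chromosomes hold stretches of genes lower in B140H, described below. How many of these GTPase genes lie in the stretches was not counted, and the part of the stretches was not tested. Arap3, a GTPase-activating protein, measured 459, 237 and 661 in B140H and 88.0, 50.1 and 52.4 in B140P (change 2.74, adjusted p = 0.000219). The call came from a probe set shared between transcripts, and the other probe sets of Arap3 changed by 0.56 and 0.35 and were not called. Rasa4, an inhibitor of Ras, changed by 1.98 (adjusted p = 4.58e-06), with a mean over its probe sets of 0.56 of that. Nras, a Ras gene often mutated in myeloid leukaemia, measured 2397, 2129 and 2423 in B140H and 4004, 4045 and 3731 in B140P (change -0.76, adjusted p = 0.000521). Vav3, an exchange factor and adaptor of receptor signalling, changed by -0.97 (adjusted p = 0.000554), and Rab39, a GTPase of vesicle traffic, by -2.25 (adjusted p = 2.93e-06). Lcp2, an adaptor of antigen and Fc receptor signalling, went up to 920.0, 867 and 718 in B140H, against 183, 136 and 193 in B140P (change 2.29, adjusted p = 2.36e-06).

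In the Wnt, Notch, TGF-beta and Hedgehog list 6 of 44 genes fell and 0 rose, with a median of -0.01. The TGF-beta receptor genes Tgfbr1 and Tgfbr2 changed by -0.88 (adjusted p = 0.00151) and -0.62 (adjusted p = 0.00133), and Smad3, their intracellular messenger, by -0.67 (adjusted p = 0.00241). Notch2 measured 1418, 1076 and 1234 in B140H and 2851, 2218 and 2246 in B140P (change -0.97, adjusted p = 0.000542). When all probe sets of a gene were averaged, the Tgfbr2 and Smad3 calls ended, and Tgfbr1 and Notch2 changed by 0.41 and 0.45 of these values. Among the 6 genes, 3 lie on chromosome 9 and 1 on chromosome 3, and the part of their neighbourhoods was not tested.

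**Figure D3:**
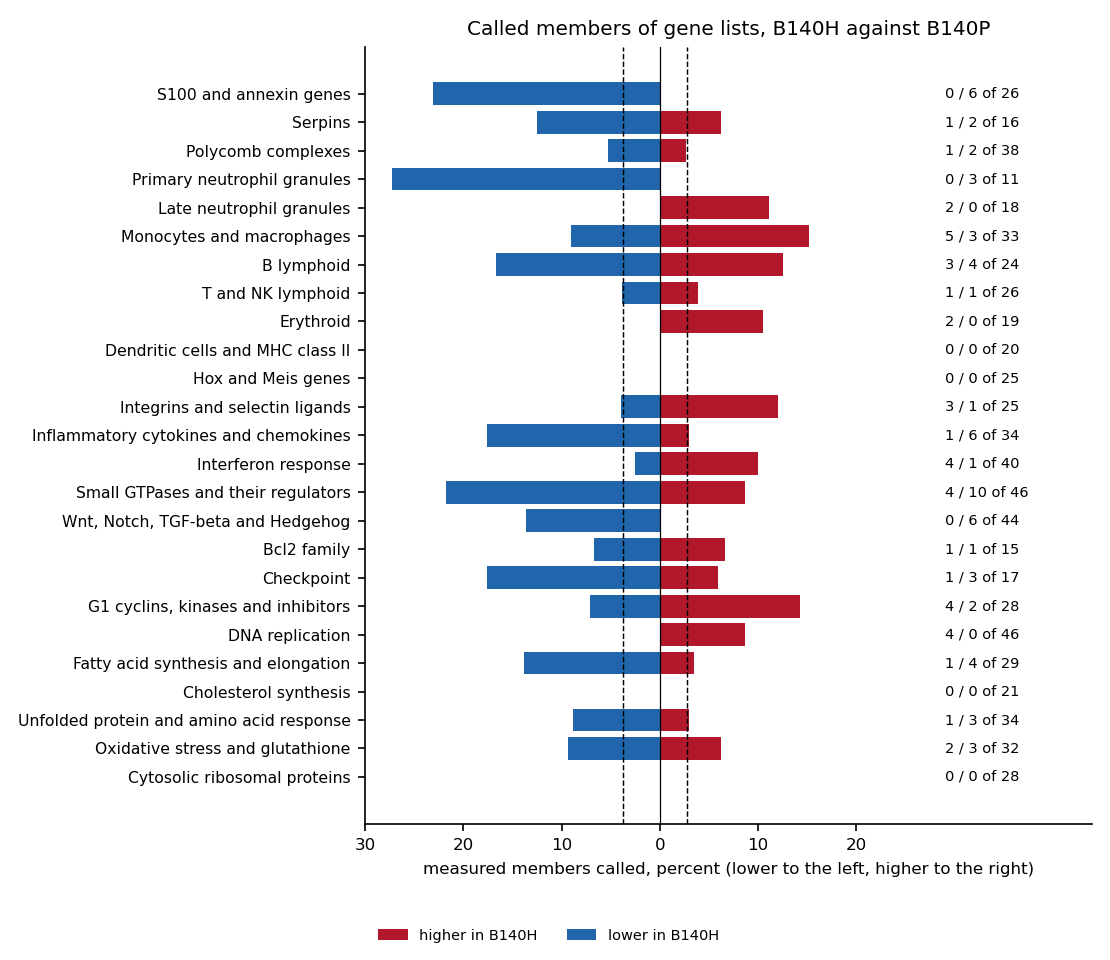
Share of the measured members of 25 gene lists that were called lower (blue, to the left) or higher (red, to the right) in B140H, in percent. The numbers at the right give members higher / lower of those measured, and dashed lines mark the shares over all genes, 3.75% lower and 2.81% higher. Small GTPases had 10 lower and 4 higher of 46, and cytosolic ribosomal proteins had 0 called of 28.

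Among genes of cell death, a pair of anti-apoptotic relatives moved in opposite directions. Of 15 measured Bcl2 family genes 1 rose and 1 fell. Bcl2, which holds mitochondria closed against apoptosis, measured 2502, 2449 and 1867 in B140H, against 1071, 1195 and 1035 in B140P (change 1.04, adjusted p = 0.000193). Further Bcl2 probe sets changed by 0.64 to 1.18, and not all were called (highest adjusted p = 0.309). Mcl1, its short-lived relative with the same role, measured 3429, 3853 and 3600.5 in B140H, against 7016, 6536 and 6264 in B140P (change -0.86, adjusted p = 0.000225), and all 5 further Mcl1 probe sets were called lower. Ripk3, the kinase of necroptosis, measured 511, 487 and 521 in B140H and 1245, 1388 and 1158 in B140P (change -1.31, adjusted p = 3.22e-06). It was 1 of 3 genes that fell, beside 1 that rose, among 21 genes of caspases and death receptors, and the 3 lie on chromosomes 3, 9 and 14. Limma called 0 of 22 p53 target genes, 2 were called with the array letter as a block, and 5 had an unadjusted p under 0.05.

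Among repair genes, Xrcc5, which encodes the large Ku subunit that caps broken DNA ends, fell to 87.5, 88.3 and 108 in B140H, against 386, 426 and 407 in B140P (4.28-fold, change -2.10, adjusted p = 3.76e-06). It was the one call among 13 genes of end joining. Of 17 checkpoint genes 3 fell and 1 rose (23.5% called), with a median of -0.06. The damage kinase genes Atm and Atr fell, Atm to 937, 855 and 879 in B140H against 1192, 1322 and 1188 in B140P (change -0.47, adjusted p = 0.0061), and Atr by 0.54 on the log2 scale (adjusted p = 0.00818). The mean over all probe sets of Atr changed by 1.57 times that value. The Atm call ended with the 6 arrays of the pair alone (adjusted p = 0.0538). The 3 checkpoint genes that fell all lie on chromosome 9, and the part of their neighbourhoods was not tested.

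The DNA replication list had 4 genes that rose and 0 that fell among 46 (8.7% called). Its median change of 0.17 stood above the 0.05 of all genes, and for 21 of its genes the B140H arrays lay wholly above those of B140P, as they did for 13.7% of all genes. With the array letter as a block 9 were called, beside 10% of all genes. Rfc2, a subunit of the clamp loader, measured 5277, 5966 and 5494 in B140H, against 2841, 2966 and 2894 in B140P (change 0.94, adjusted p = 5.18e-05). Of the 4 genes that rose, 3 lie on chromosome 5. Of 28 genes of G1 cyclins, kinases and inhibitors 4 rose and 2 fell. Ccne1, the E-type cyclin of S phase entry, measured 1489, 1664 and 1379 in B140H and 837, 933 and 967 in B140P (change 0.73, adjusted p = 0.00194), whereas the D-type cyclin gene Ccnd1 changed by -0.69 (adjusted p = 0.00152), which with the mean of its probe sets was -0.77 and not called (adjusted p = 0.0861). The mitosis list had 1 rise and 1 fall among 31 genes.

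In metabolism, genes of fatty acid elongation were among the larger falls. Hacd1, a dehydratase of the elongation cycle, measured 472, 348 and 313 in B140H, against 2900.2, 2374 and 2319 in B140P (change -2.76, adjusted p = 3.54e-07). Elovl6, which lengthens palmitate to stearate, measured 82.9, 91.8 and 67.8 in B140H and 470.3, 399.6 and 452 in B140P (change -2.44, adjusted p = 6.22e-07). Hacd4, another dehydratase gene, changed by 1.10 (adjusted p = 0.0039). In all, 4 of 29 genes of fatty acid synthesis and elongation fell and 1 rose, and of the 4, 1 lies on chromosome 3 and 2 on chromosome 9. Limma called 0 of 21 cholesterol synthesis genes, with 2 at an unadjusted p under 0.05.

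The 3 genes of serine synthesis fell. Phgdh, which takes the first step, measured 8288, 9559 and 10746 in B140H and 14010.0, 15142 and 14209 in B140P (change -0.61, adjusted p = 0.00494). Psat1, the next step, measured 658, 773 and 651 in B140H and 1495, 1462 and 1218 in B140P, a 2.002-fold lower level (adjusted p = 0.000343), and Psph, the last, measured 454, 348 and 407 in B140H and 1049, 1075 and 1009 in B140P (change -1.38, adjusted p = 6.44e-05). They were the 3 falls, beside 1 rise, among 34 measured genes of the unfolded protein response and of amino acid stress.

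Metal and haem genes also moved. The metallothionein genes Mt1 and Mt2, which bind zinc and copper, fell. Mt2 measured 1138, 1389.6 and 1289 in B140H, against 4925, 3651 and 4109 in B140P (change -1.73, adjusted p = 3.31e-06), and Mt1 changed by -0.77 (adjusted p = 0.000268), a call that ended without probe sets shared between transcripts. Hmox1, which breaks down haem, measured 776, 576 and 753 in B140H and 255, 277 and 282 in B140P (change 1.35, adjusted p = 0.000118). In the iron list, which holds Fbxl5, Hp and Hmox1, 2 genes rose and 3 fell among 26 (19.2% called). Of 28 cytosolic ribosomal protein genes limma called 0, and 2 had an unadjusted p under 0.05.

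The called genes were unevenly spread over the chromosomes. On chromosome 3, 62 genes rose and 103 fell (18.1% of its measured genes), on chromosome 14 3 rose and 105 fell (16.8%), and on chromosome 9 9 rose and 134 fell (14.3%). Chromosome 5 had 88 rises and 14 falls (9.09%) and chromosome 12 had 3 rises and 41 falls (7.07%). The other autosomes and the X chromosome had 3.02% to 6.41% called. These 5 chromosomes, chosen after their values were seen, hold 23.8% of the genes placed on a chromosome and 47.1% of the calls. Of the calls of at least 2-fold they hold 34.7%.

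The same unevenness was seen along the chromosomes. Genes brighter than the median of all probe sets were taken in their order along each chromosome (positions from RefSeq, GRCm38.p6) in windows of 30, a size chosen after the data were seen. Of 367 full windows, 36 had a median change of at least 0.2 in size, all on these 5 chromosomes, and the medians of the other 331 lay between -0.18 and 0.18. In the 36 windows 394 of 1080 genes were called (36.5%), against 662 of 9930 (6.67%) in the others. In each of the 36 the medians of the 3 B140H arrays lay wholly on one side of those of the 3 B140P arrays. The 36 windows were picked by the size of the same change, so a higher share of calls in them was built in. Array medians on one side were favoured by that choice too, and neither is separate support.

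On chromosome 3, between Selenbp1 and Casp6, 5 of 6 windows had medians between -0.68 and -0.34, and 75 of their 150 genes fell while 2 rose. The other window there, from Ppm1j to Gstm1, had a median of -0.16. On the chromosome as a whole, inside or outside these windows, Mcl1, Nras, Notch2, Vav3, Phgdh and Elovl6 are among the genes that fell. Directly beyond the window that ends at Casp6, from Sec24b to Rabggtb, the medians were 0.53 and 0.66, and 36 of 60 genes rose while 1 fell. On chromosome 5 the windows from Mettl27 to Bhlha15 had medians between 0.32 and 0.55, with 55 of 120 genes higher and 0 lower. Dck, Fbxl5 and Gnpda2, which fell, are also on chromosome 5, whose other windows stayed under the bound. On chromosome 9, between Alkbh8 and Dbr1, 13 of 14 windows had medians between -0.39 and -0.22, with 116 of 390 genes lower and 5 higher, and the window from Msantd2 to H2ax had -0.17. On chromosome 14 the stretch from Txndc16 to Tgds had medians between -0.49 and -0.21, with 88 of 240 genes lower and 2 higher. On chromosome 12, between Kidins220 and Ppp4r3a, 4 of 8 windows had medians between -0.25 and -0.21 with 14 of 120 genes lower. The remaining windows of chromosome 12 also had negative medians, from -0.18 to -0.004. In the 4 windows the B140P array medians ran from -0.07 to 0.10 and those of B140H from -0.38 to -0.13. DNA content was not measured, and its part in these stretches was not tested.

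**Figure D4:**
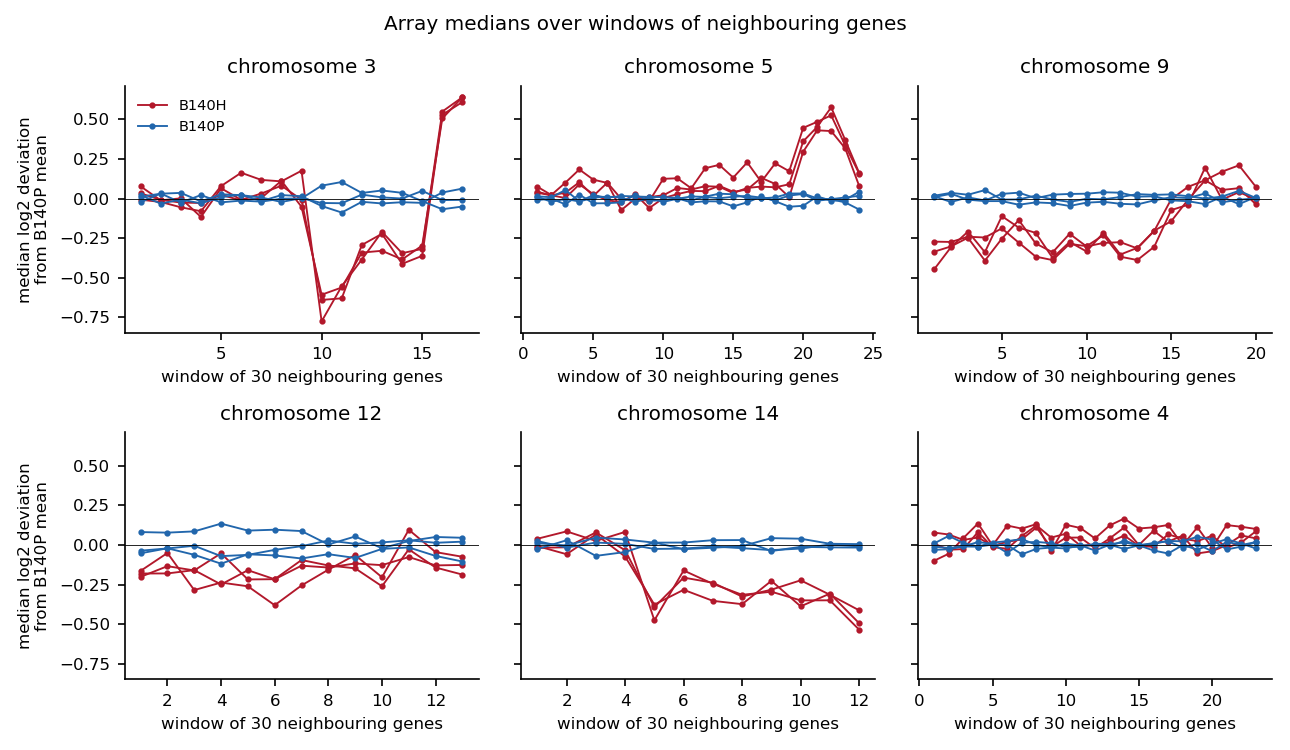
Median over windows of 30 neighbouring genes of each array's log2 deviation from the B140P mean, in gene order along chromosomes 3, 5, 9, 12 and 14 and, for comparison, chromosome 4. Red lines are the 3 B140H arrays and blue lines the 3 B140P arrays. On chromosome 3 the B140H lines drop below zero and then rise above 0.5 in the last 2 windows, while on chromosome 4 both lines stay near zero.

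The change of the B140 pair was set against that of the B117 pair, which shares no array with it. The changes differed for 1896 of 18193 genes (10.4%), and 738 of the 1194 genes called in the B140 pair were among them. Both pairs had a call for 273 genes, 22.9% of the B140 calls and 15.9% of the 1712 B117 calls (9.41% of all genes). Of these 107 changed in the same direction and 166 in opposite directions.

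The brighter probe sets of Dck fell in both pairs, by different amounts. The brightest probe set gave 9.39, 11.2 and 9.91 units in B117H, near the lowest intensity of any array (7.65), against 2287, 3158 and 2935 in B117P. Its change of -3.04 in the B140 pair differed from that of -7.96 in the B117 pair (difference 4.92, adjusted p = 2.56e-08), although the size is not exact at such low values. The next brightest changed by -2.90 in the B140 pair and -6.43 in the B117 pair. The dimmest went the other way in size, with -1.41 in the B140 pair and -0.12 (adjusted p = 0.913) in the B117 pair. Other named genes that fell in both pairs were Psph, with -1.38 in the B140 pair and -2.19 in the B117 pair, Ifitm1 with -1.48 and -2.15, Abcc4 with -0.84 and -0.66, Mt2 with -1.73 and -0.57, Mt1 with -0.77 and -0.47, and Ctss with -0.60 and -0.60. For Ifitm1, Abcc4, Mt1 and Ctss the difference between pairs was not called. Serinc5 rose in both, by 2.93 in the B140 pair and 0.77 in the B117 pair (difference 2.16, adjusted p = 0.000117). Dguok also rose in both, by 0.43 in the B140 pair and 0.49 in the B117 pair (adjusted p = 0.00589). Its difference between pairs was not called (adjusted p = 0.885). Lcp2, Rhd and Serpini1 were called higher in both as well.

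S100a10, the gene with the largest fall in B140H, measured 4134, 4082 and 4078 in B117H and 4425, 4691 and 5438 in B117P, and its change there was -0.24 (adjusted p = 0.562; difference -5.23, adjusted p = 3.28e-08). Epop, Serpinb8 and Sfmbt2 were at 91.7 units or below on all 6 B117 arrays, so the level of B140P was the one that stood apart. Gem was high in both B117 lines, at 7016 ± 1287 in B117H and 5863 ± 170.2 in B117P (SD, n = 3 each).

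Several of the largest changes ran in opposite directions in the pairs. Hpse changed by 2.44 in the B140 pair and -3.51 in the B117 pair (difference 5.95, adjusted p = 3.28e-08). Hmgn3 changed by 2.67 and -2.48 (difference 5.15, adjusted p = 8.55e-07), Hp by 3.09 and -1.61 (difference 4.70, adjusted p = 1.35e-07), and F13a1 by 2.03 and -2.58 (difference 4.61, adjusted p = 7.85e-05). Irf8 and Ccne1 rose in B140H and fell in B117H. Xrcc5 changed by -2.10 in the B140 pair and 1.27 in the B117 pair (difference -3.36, adjusted p = 1.32e-06), while Dntt fell in B140H and rose in B117H (difference -3.91, adjusted p = 0.000254). In B117H Xrcc5 lay between 116.0 and 140.3 units, against 41.4 to 64.5 in B117P. Of the 36 windows described above, those on chromosome 12 had medians between 0.27 and 0.49 in the B117 pair, opposite to the B140 pair, while the chromosome 3 window from Tspan5 to Rabggtb was higher in both, at 0.66 in the B140 pair and 0.52 in the B117 pair.

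**Figure D5:**
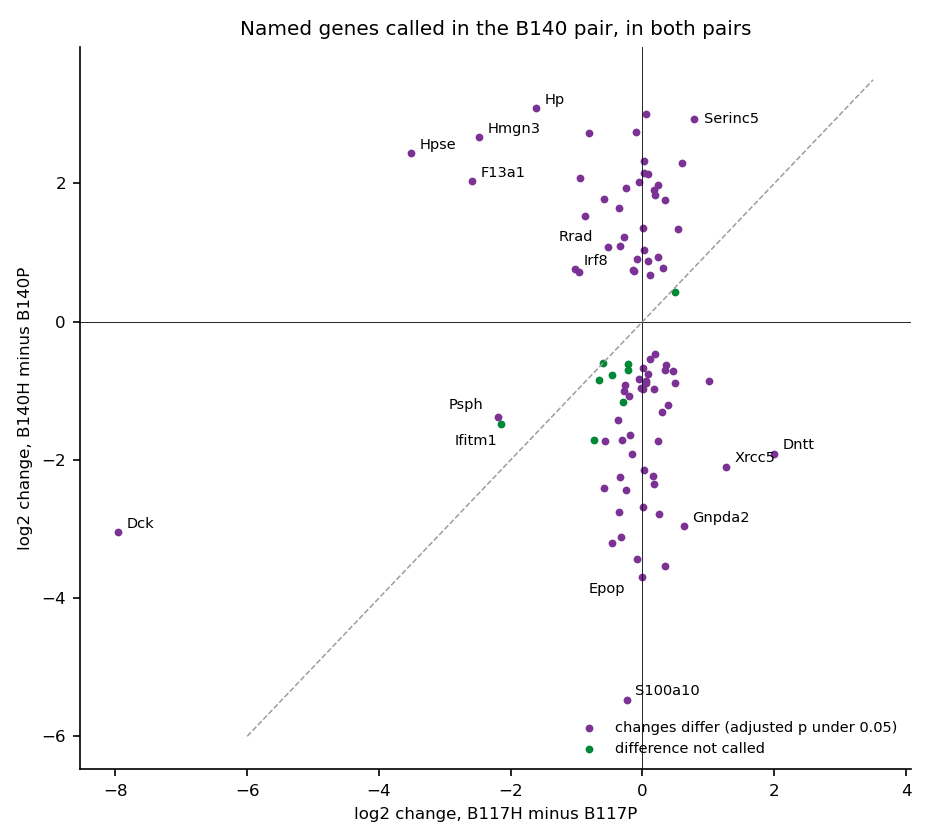
Log2 change of the 92 named called genes in the B140 pair (vertical axis) against their log2 change in the B117 pair (horizontal axis). Purple points are genes whose changes differed between the pairs at an adjusted p under 0.05, green points those without such a call, and the dashed line marks equal changes. Hpse, Hmgn3, Hp and F13a1 lie at the upper left, with rises in B140H and falls in B117H.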

How the data were processed

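The deposited intensity values are probe-set summaries on a linear scale, made with RMA per the submitters' processing notes. Neither its version nor its settings are stated in those notes, detection calls are not given, and intensities ran from 7.65 to 36675. Here they were put on the scale log2(value + 1). Of 45101 probe sets 64 controls were left out and 45037 tested with limma 3.58.1 in R 4.3.3 (lmFit, contrasts.fit, eBayes, two-sided) on all 12 arrays with 1 coefficient per line. P-values were adjusted by Benjamini-Hochberg across these probe sets, and under 0.05 counted as a call. The fit had 8 residual and 4.65 prior degrees of freedom, and the median 95% interval spanned a factor of 1.20 to either side of a fold. The number of arrays limits this precision, and calls were checked on simulated data. That simulation drew each array independently, without shared deviations of same-letter arrays, so it tests the fit and not the calls of these data.

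The platform annotation, which can be old, gave 1 symbol to 34945 probe sets, several to 932 and none to 9160. A gene was represented by its brightest one-symbol probe set (18193 genes, 18032 matched in RefSeq, GRCm38.p6). The files name no genome build, so that table gave only chromosomes and gene order. Other probe sets of the 199 genes with calls of at least 2-fold were looked at: of 190, 79 were called in the same direction, 0 in the opposite one and 111 not at all.

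The letters A, B and C pair the arrays by their values: deviations of same-letter B140H and B140P arrays from their line means correlated at 0.587, 0.36 and 0.56 across probe sets, and the main model has no term for the letter. Named genes are the largest called rises and falls without overlap between lines, those that crossed from above the median to below the lower quartile, the largest called members of each list, genes of Ara-C handling, those that differed most from the B117 pair, and close relatives of these. Predicted genes were left out. The comparison, the lists and the genes were chosen with earlier results of these data known. The alternatives covered scale, normalization, filters, priors, weights, thresholds, probe sets, the letter as a block and left-out arrays. In all, 52 gene lists were counted.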

Additional observations from a re-analysis of the deposited data

Results flagged for a closer look

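Of the 103 genes named, 92 were called in the B140 pair, and for 83 of these the change also differed from that of the B117 pair by limma's test of the difference. Over all genes called in the B140 pair this held for 738 of 1194. The named genes were chosen in part for this difference, which raises their share. Each of the 83 genes is given with this difference, the log2 change of the B140 pair minus that of the B117 pair, in brackets. The highest adjusted p of these differences was 0.0396.

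A called change in the opposite direction in the B117 pair was found for 17 genes. Those higher in B140H and lower in B117H were Hpse (5.95), Hmgn3 (5.15), Hp (4.70), F13a1 (4.61), Ttc39c (3.02), Gcsam (2.39), Lratd2 (2.35), Irf8 (1.78), Ccne1 (1.68) and Rrad (1.60). Those lower in B140H and higher in B117H were Dntt (-3.91), Gnpda2 (-3.58), Xrcc5 (-3.36), Egfl7 (-1.87), Tgfbr1 (-1.37), Icam1 (-1.17) and Tgfbr2 (-0.98).

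Called in the same direction in both pairs, with changes of different size, were Mt2 (-1.16), Rhd (0.46), Serpini1 (0.80), Psph (0.81), Lcp2 (1.69), Serinc5 (2.16) and Dck (4.92). A positive value here means that the B140H change lay above that of B117H, so for Dck and Psph, which fell in both resistant lines, the fall was smaller in B140H. For Dck this is its brightest probe set, and its dimmest changed by -1.41 in the B140 pair and -0.12 in the B117 pair.

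The remaining genes had no call in the B117 pair. Genes that rose in B140H were Zscan26 (3.54), Megf9 (2.96), Arap3 (2.84), Phka1 (2.30), Mmp8 (2.19), Gca (2.13), Mpeg1 (2.07) and Lrrc39 (2.05). Further rises were those of Cd22 (1.99), Rasa4 (1.74), Nt5el (1.73), Clec2i (1.64), Bank1 (1.5), Hacd4 (1.45), Myl4 (1.42) and Hmox1 (1.35). Smaller rises were those of Bcl2 (1.02), Cd68 (0.99), Itga4 (0.89), Fech (0.85), Trim30a (0.79), Rfc2 (0.70) and Nudt1 (0.56). Genes that fell in B140H were S100a10 (-5.23), Serpinb8 (-3.87), Epop (-3.69), Sfmbt2 (-3.35), Gem (-3.02), Fbxl5 (-2.79), Sash1 (-2.74), Pou2af1 (-2.69), Magi3 (-2.53), Insm1 (-2.40), Hacd1 (-2.39) and Elovl6 (-2.19). Further falls were those of Spint2 (-2.17), S100a1 (-1.96), Rab39 (-1.90), Mpo (-1.82), Cd276 (-1.76), Ripk3 (-1.61), Il15 (-1.60), Anxa5 (-1.45), Marchf8 (-1.41), Notch2 (-1.14), Ctsl (-1.05) and Cd163 (-1.04). Smaller falls were those of Vav3 (-0.99), Dnmt3b (-0.95), Cst7 (-0.94), Mcl1 (-0.91), Csf2 (-0.87), Nras (-0.85), Setdb1 (-0.76), Psat1 (-0.72), Smad3 (-0.68), Atm (-0.66), Atr (-0.66) and Anxa9 (-0.65).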

How the results depend on the processing

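The 1194 calls of the B140 pair became 682 with only its 6 arrays in the fit, 629 at an adjusted p under 0.01 and 96 when tested against a fold of 1.5. Leaving out 1 array of the pair gave 746 to 1086 calls, and leaving out all A, all B or all C arrays, which takes 1 array from each line, gave 489, 354 and 378. With the replicate block 1827 genes were called. Among named genes the block changed 1 call and no other, adding Rrm1 (adjusted p = 0.0408). For the difference from the B117 pair, 1896 calls became 1006 at an adjusted p under 0.01, 248 against a fold of 1.5, and 904, 672 and 575 without all A, all B or all C arrays, with 1452 to 1879 when 1 array was left out and 2739 with the replicate block. When arrays were centred on their medians, 374 of 1121 calls were higher in B140H (33.4%, against 42.9% of the main calls), and the median change of all genes moved by -0.04.

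Of the called genes named, 1 changed direction under a setting, Ctsl, which changed by 0.00103 without probe sets shared between transcripts. Of the uncalled ones, Samhd1 changed by -0.0505 with the mean of its probe sets. Anxa2 changed by 0.105 with array weights, by 0.0995 without probe sets shared between transcripts and by 0.0782 without all A arrays, and lay between -0.22 and 0.25 when 1 array was left out. The causes were not tested. Of the 92 called genes named, 10 lost their call without all A arrays (Dguok, Irf8, Ctss, Icam1, Ccne1, Ccnd1, Atm, Atr, Phgdh and Smad3), 16 without all B arrays (Mpo, F13a1, Mmp8, Dguok, Cd68, Ctss, Cd163, Dntt, Fech, Icam1, Ccne1, Atm, Atr, Phgdh, Hacd4 and Trim30a) and 14 without all C arrays (Dguok, Cd68, Ctss, Cd163, Dntt, Ccnd1, Atm, Atr, Phgdh, Hacd4, Tgfbr2, Smad3, Csf2 and Ifitm1). Against a fold of 1.5, 41 of the 92 lost their call. Background was not measured separately, so levels near the low end are not exact.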

Other observations

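The calls in gene groups not described above stand beside 6.56% of all genes, and those with the array letter as a block beside 10%. Of 21 measured genes of homologous recombination and interstrand repair 2 rose and 1 fell (14.3% called), and of 26 genes of excision and mismatch repair 1 fell. Of 41 haematopoietic transcription factors 2 rose and 1 fell, and of 35 cytokine receptors 3 rose and 2 fell (14.3%). Of 34 Fc and pattern receptors 1 rose and 2 fell, and of 15 genes of MHC class I and peptide loading 1 rose. Among markers of other cells, 1 of 16 megakaryocyte genes, 1 of 17 genes of mast cells, basophils and eosinophils and 1 of 23 stromal and endothelial genes fell, and none of these lists had a rise.

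In energy metabolism, 3 of 31 genes of glycolysis and glycogen and 2 of 37 genes of oxidative phosphorylation rose, with 0 falls in either list. Of 22 heat shock genes 1 rose. Of 32 genes of oxidative stress and glutathione 2 rose and 3 fell (15.6%), beside 9 calls when the array letter was a block. The 28 lysosomal genes had 3 rises, Hpse among them, and 4 falls (25% called). Of 34 immediate early genes 2 fell, with a median change of -0.22 and 6 calls with the array letter as a block.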
